A study of Mus musculus with 8 samples.

Results

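The regions described here were FAIRE peaks of EpRas cells that were called without TGF-β and were no longer called after TGF-β treatment. The peaks of all 8 libraries were merged wherever they overlapped by at least 1 bp, which gave 37230 regions. A region was a member if both untreated EpRas libraries had a peak in it and neither TGF-β-treated EpRas library did, and 345 regions met this rule, 0.927% of all regions. The members were thus chosen by the EpRas peak calls themselves, so their behaviour in the EpRas libraries is a description and only the EpH4 libraries are an independent readout. The word "lost" means that no peak was listed, since the lists give no read numbers and a site just under the authors' limit cannot be told from a closed one.

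FAIRE-seq enriches DNA that is not crosslinked to protein, and its peaks mark accessible chromatin. EpH4 is a mouse mammary gland epithelial cell line without active H-Ras expression, and EpRas is its derivative transformed with active H-Ras. Both were cultured either with 1 ng/ml TGF-beta3 (called TGF-β here) for 8 days or without it, EpH4 cells in 10% and EpRas cells in 4% fetal bovine serum. Each of the 4 groups had 2 libraries, which the study's methods call biological replicates, and each line stands for 1 cell line only. The treated and untreated groups of a line shared its medium, whereas serum and Ras cannot be told apart between the lines.

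TGF-β is a secreted cytokine that signals through receptor kinases to Smad proteins. In epithelial cells it arrests growth and can drive epithelial-mesenchymal transition (EMT), in which cells give up junctions and polarity and take on migratory traits, and active Ras is known to favour that outcome. Promoters are often accessible in many cell types, while distal elements are commonly bound by factors such as AP1, the dimers of Fos and Jun proteins that act downstream of Ras and MAP kinases, and by TEAD proteins, the DNA-binding partners of the Hippo pathway effectors YAP and TAZ.

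The sequences of 8 lost regions are given as examples: a promoter, distal regions with and without AP1 words, and a distal region that was also lost in EpH4 cells. They do not mirror the set, since several were picked for AP1 words, which only 29.2% of distal lost regions held. Each is the plus strand of GRCm38 (mm10) read from RefSeq, at most 300 bases around the midpoint, and for the promoter only the stretch outside annotated exons. Capitals mark matches on either strand to 5 motifs: AP1 (TGACTCA or TGAGTCA), ETS (ACGGAAA or ACGGAAG or CCGGAAA or CCGGAAG), RUNX (TGTGGTT), TEAD (GGAATG) and SP/KLF (GGGCGG). The *Vps33b* promoter stretch lies at chr7:80269483-80269648, upstream of the start site. The *Mlph* region is chr1:90896755-90897054, the *Mrc1* intron chr2:14295443-14295713, the *Itgb5* intron chr16:33836695-33836994, the *Map2k1* intron chr9:64202446-64202718, the *Ltbp1* intron chr17:75251275-75251530, the *Mtap* region chr4:89078558-89078857 and the *Gnai2* region chr9:107644590-107644867.
Vps33b promoter: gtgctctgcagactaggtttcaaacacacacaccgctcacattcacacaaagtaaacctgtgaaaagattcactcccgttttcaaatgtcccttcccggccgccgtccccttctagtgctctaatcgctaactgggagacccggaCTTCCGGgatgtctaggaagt
Mlph upstream region: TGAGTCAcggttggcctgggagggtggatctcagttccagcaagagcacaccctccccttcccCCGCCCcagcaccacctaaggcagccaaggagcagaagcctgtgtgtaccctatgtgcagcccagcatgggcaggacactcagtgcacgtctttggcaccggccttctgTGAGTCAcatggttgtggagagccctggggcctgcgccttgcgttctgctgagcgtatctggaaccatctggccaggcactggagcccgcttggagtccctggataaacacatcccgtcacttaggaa
Mrc1 intron: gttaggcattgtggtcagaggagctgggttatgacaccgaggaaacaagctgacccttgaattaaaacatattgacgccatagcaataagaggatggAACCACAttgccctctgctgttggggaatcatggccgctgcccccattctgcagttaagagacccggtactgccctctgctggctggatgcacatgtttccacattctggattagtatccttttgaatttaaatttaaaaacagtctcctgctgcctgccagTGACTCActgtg
Itgb5 intron: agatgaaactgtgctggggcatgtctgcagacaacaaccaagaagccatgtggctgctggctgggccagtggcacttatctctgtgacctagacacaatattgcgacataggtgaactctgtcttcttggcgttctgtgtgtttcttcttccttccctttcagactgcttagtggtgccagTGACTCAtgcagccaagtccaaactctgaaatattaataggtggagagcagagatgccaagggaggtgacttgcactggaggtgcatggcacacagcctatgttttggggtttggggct
Map2k1 intron: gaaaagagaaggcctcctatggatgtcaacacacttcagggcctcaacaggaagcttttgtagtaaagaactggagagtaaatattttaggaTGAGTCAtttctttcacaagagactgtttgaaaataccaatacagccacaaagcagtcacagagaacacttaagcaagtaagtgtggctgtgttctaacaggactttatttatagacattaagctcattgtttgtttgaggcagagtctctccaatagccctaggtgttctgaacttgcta
Ltbp1 intron: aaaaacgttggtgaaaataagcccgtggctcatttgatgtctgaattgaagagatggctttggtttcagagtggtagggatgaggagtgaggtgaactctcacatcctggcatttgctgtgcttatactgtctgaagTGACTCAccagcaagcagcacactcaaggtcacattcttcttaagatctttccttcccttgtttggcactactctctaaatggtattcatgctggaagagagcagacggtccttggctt
Mtap upstream region: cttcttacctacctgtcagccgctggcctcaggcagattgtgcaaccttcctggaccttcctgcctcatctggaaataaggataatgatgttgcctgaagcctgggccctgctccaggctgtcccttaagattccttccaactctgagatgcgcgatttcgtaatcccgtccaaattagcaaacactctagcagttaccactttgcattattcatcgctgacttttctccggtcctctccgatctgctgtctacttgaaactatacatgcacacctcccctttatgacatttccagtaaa
Gnai2 upstream region: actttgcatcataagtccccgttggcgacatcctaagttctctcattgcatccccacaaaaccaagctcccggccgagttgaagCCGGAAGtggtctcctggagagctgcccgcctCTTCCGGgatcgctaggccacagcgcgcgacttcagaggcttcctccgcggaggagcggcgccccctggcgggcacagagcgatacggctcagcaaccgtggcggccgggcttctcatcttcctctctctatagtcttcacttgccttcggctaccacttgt

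The *Vps33b* stretch held 1 ETS word at bases 146 to 152, counted from its first printed base. The *Mlph* sequence held 2 AP1 words, at bases 1 to 7 and 173 to 179, and an SP/KLF word. The *Mrc1* sequence held a RUNX word at bases 98 to 104 and an AP1 word at bases 260 to 266. The *Itgb5*, *Map2k1* and *Ltbp1* sequences held 1 AP1 word each, the *Mtap* sequence held none of the 5 motifs, and the *Gnai2* sequence held 2 ETS words. A word match describes the letters only and is no evidence that a factor was bound.

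Loss of a peak was less frequent than gain in the EpRas lists as deposited. Of the 10678 regions called in both untreated libraries, 345 were lost (3.23%), 1615 had a peak in 1 of the TGF-β-treated libraries and 8718 were retained in both. In the opposite direction 2843 regions had a peak in both treated libraries and in no untreated library, and these are called gained. They were 7.64% of all merged regions, against 0.927% for the lost ones. The lists of treated EpRas cells, with 27337 and 16833 peaks, were longer than those of untreated cells in total, with 17210 and 13784, and depth was unknown. Gained regions were not counted with lists of equal length.

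The 2 treated libraries entered the rule unequally. Of the 1615 regions with a peak in a single treated library, 1468 had it in the first and 147 in the second. Without the first TGF-β library 1815 regions would have been lost, and without the second 492. Without the first untreated library 1165 regions would have met the rule, and without the second 2118. With lists cut to the same number of highest-scored peaks it was 808.

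Lost regions were weak before treatment. Scores were compared as percentiles, the rank of a peak among all peaks of its own list from 0 to 100, because the meaning of the deposited score was not stated. The mean percentile over both untreated libraries had a median of 34.1 in lost regions, with a range from 0.497 to 83.9, against 41.2 in regions called in 1 treated library and 62.6 in retained regions. In the first untreated library the scores of the members ran from 6.58 to 30.4 around a median of 13.0, and in the second from 6.68 to 30.0 around 12.6. Only 32 of the 345 members reached the 50th percentile in both untreated libraries.

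The share of regions lost fell with each step of the score before treatment. It was 11.1% (Wilson 95% interval 9.08 to 13.5) for regions up to the 20th percentile, 6.45% (5.46 to 7.61) up to the 40th, 3.44% (2.83 to 4.17) up to the 60th, 1.03% (0.718 to 1.47) up to the 80th and 0.134% (0.0455 to 0.393) above it. At the top step 3 of 2242 regions were lost. The share with a peak in only 1 treated library fell as well, from 30.7% in the lowest step to 2.54% in the highest. These intervals, like all intervals of shares given here, cover counting error within the lists and not the spread between libraries.

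**Figure D1:**
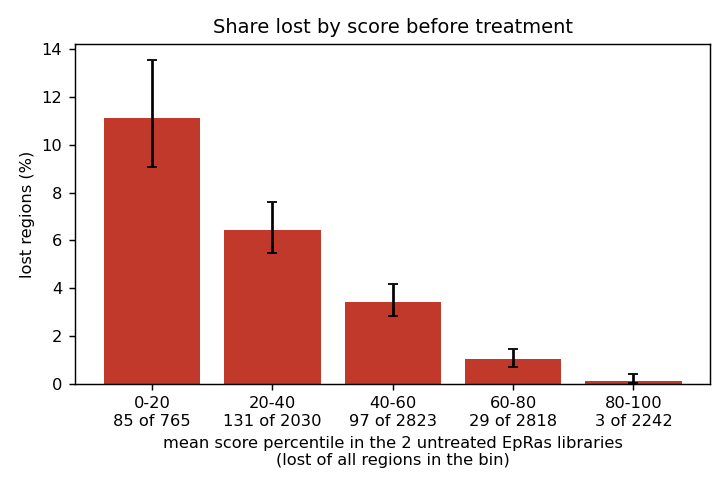
Share of regions lost with TGF-β in EpRas cells, in percent, against the mean score percentile in the 2 untreated EpRas libraries, for all 10678 regions called in both. Bars are shares, error bars are Wilson 95% intervals, and the share declines from 11.1% in the lowest to 0.134% in the highest step.

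The member with the lowest percentile (chr5:79416740-79417037) had scores of 7.52 and 7.23. Its nearest coding gene was *Adgrl3*, whose start site was 1604 kb away. Regions are named by the nearest protein-coding gene, so "near" a gene sets no limit of distance unless one is given. Just outside the rule were regions near *Zar1l* (chr5:150465226-150465593) and *Lax1* (chr1:133685762-133686117), each excluded by a peak of score 5.85 in the first treated library, the lowest score of that list. Their mean percentiles in untreated EpRas cells were 26.2 and 42.9.

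The distance from a member to the nearest peak of a TGF-β-treated EpRas library had a median of 9204 bp and ranged from 2 to 863264 bp. The distance was at most 100 bp for 12 members, at most 500 bp for 47 and at most 1 kb for 68. It was at most 5 kb for 118 members (34.2%) and at most 10 kb for 176 (51.0%). The member closest to a treated peak was at *St6gal1* (chr16:23240937-23241294), a sialyltransferase gene. The nearest retained region was a median of 38.6 kb away and the nearest gained region 185.9 kb, and 15 members (4.35%) lay within 10 kb of a gained region.

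Promoters made up 122 of the 345 lost regions, 35.4% (30.5 to 40.5). A promoter region is one whose midpoint lies within 2 kb of an annotated transcription start site (TSS), and all others are called distal. The promoter share was 44.9% (43.9 to 45.9) in retained regions, 17.8% (16.4 to 19.2) in gained regions and 31.7% in all regions. Of the distal members, 103 lay in introns and 118 between genes, with 1 in an untranslated region, 1 in another exon and 0 in coding exons. The promoter share of lost regions thus lay between those of retained and gained regions.

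Score and promoter share moved together, and within steps of score the difference was small. Up to the 20th percentile promoters were 29.4% (20.8 to 39.8) of lost and 24.9% (21.2 to 29.2) of retained regions. Between the 40th and the 60th they were 38.1% (29.1 to 48.1) and 41.3% (39.3 to 43.4). In each of the 4 steps examined the interval of lost regions held the value of retained regions.

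The lost promoters lay about as close to start sites as the retained ones. Their median distance from the nearest TSS was 84 bp, against 92 bp for retained and 324 bp for gained promoters, and 65 of the 122 (53.3%) lay within 100 bp, against 53.8% of retained and 48.4% of all promoters. The TSS of a protein-coding gene was within 2 kb for 98 of them (80.3%), against 89.5% of retained promoter regions. The median number of CpG dinucleotides in the 500 bp around the midpoint was 23 in lost, 33 in retained and 14 in gained promoters. Lost regions were a median of 274 bp wide, from 201 to 636 bp, against 382.5 bp for retained and 288 bp for gained regions.

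AP1 words were scarcer in the distal lost regions than in any of the other sets. The 7-letter word was present within 500 bp around the midpoint in 65 of 223 distal members, 29.2% (23.6 to 35.4). It was present in 43.7% of distal regions called in 1 treated library, in 59.8% (58.4 to 61.2) of retained, in 57.7% (55.7 to 59.7) of gained and in 46.7% of all distal regions. Distal regions lost by the same rule in EpH4 cells held the word in 41.35%, against 53.9% of those gained there. Members with 2 or more AP1 words were 7 of 223 (3.14%), against 17.0% of retained regions, and members with 3 or more were 0, against 2.56%. Where the word was present, its position was alike: 62.5% of the words of lost regions lay within 50 bp of the midpoint, against 53.8% in retained and 65.5% in gained regions.

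The AP1 share of lost regions was below that of retained regions at every step of score. In distal regions up to the 20th percentile, AP1 words were present in 36.7% (25.6 to 49.3) of lost and 57.5% (52.1 to 62.7) of retained regions. From the 20th to the 40th percentile the shares were 24.4% (16.6 to 34.5) and 63.4% (60.2 to 66.4), and from the 40th to the 60th 30.0% (19.9 to 42.5) and 59.0% (56.3 to 61.6). Above the 60th percentile, 4 of 17 distal lost regions held the word (23.5%, 9.56 to 47.3), against 59.2% (57.2 to 61.2) of retained ones. Regions called in 1 treated library lay between the 2 sets in every step, at 41.1% to 47.6%. Regions are not replicates of a condition, so none of these shares was tested.

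**Figure D2:**
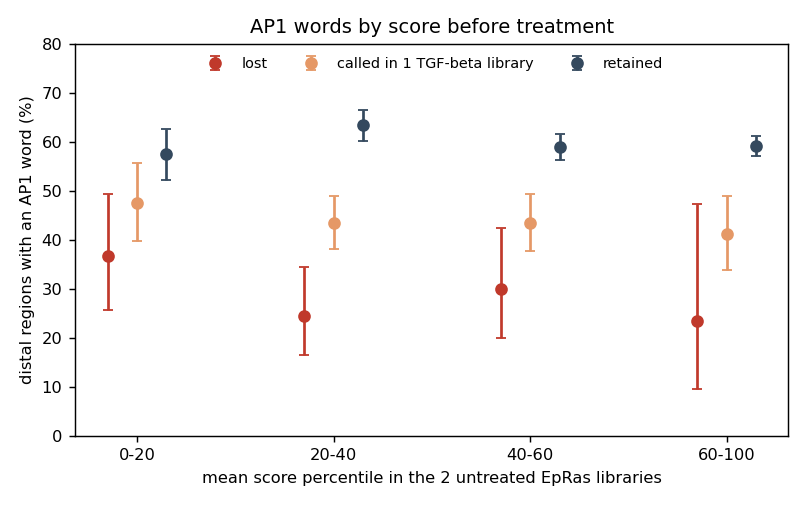
Share of distal regions with an AP1 word in the 500 bp around the midpoint, in percent, in steps of the mean score percentile in the 2 untreated EpRas libraries. Points are shares of lost regions, of regions called in 1 TGF-β library and of retained regions, error bars are Wilson 95% intervals, and in each step lost regions are lowest and retained regions highest.

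The other motifs differed less. TEAD words were present in 44.4% (38.0 to 51.0) of distal members, against 38.2% (36.9 to 39.6) of retained, 33.6% (31.7 to 35.5) of gained and 34.1% of all distal regions. RUNX words, bound by the Runt-domain factors, were present in 17.5% (13.1 to 23.0) of members and 20.1% of retained regions, and ETS words in 8.07% (5.17 to 12.4) and 10.6%. The E-box CAGGTG, to which the EMT factors of the SNAI and ZEB families bind, was present in 25.6% (20.3 to 31.7) of members and 26.1% of retained regions. The GATA word AGATAA was present in 20.2% and 18.6%, the STAT word TTCNNNGAA in 21.1% and 17.1%, and the forkhead word TGTTTAC in 8.97% and 8.10%.

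Rare words gave small counts. The CEBP word (TTACGCAA or TTGCGCAA) was present in 3 distal members, 1.35% (0.459 to 3.88), against 0.437% of retained regions. The nearest coding genes were *Sh3bp4*, *Gne* and, with its TSS 332.8 kb away, *Foxo1*. The palindromic NF1 word was present in 1 distal member, and the GRHL word AACCGGTT and the SMAD word GTCTAGAC in 0 of 223, which allows a share of up to 1.35% at the limit of 3 counts. In lost promoters, SP/KLF words were present in 63.1% (54.3 to 71.2) and ETS words in 32.0% (24.4 to 40.7), against 72.6% and 39.9% in retained promoters. AP1 words were present in 7 of 122 lost promoters (5.74%), 13.0% of retained and 27.1% of gained promoters. Words of different motifs may overlap, and the shorter ones, of 6 letters, occur more often in any sequence.

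**Figure D3:**
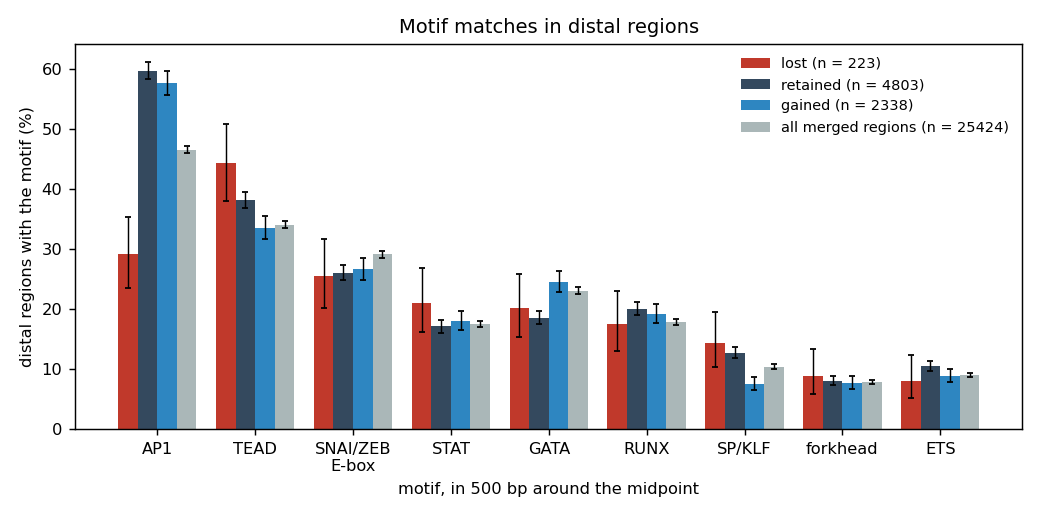
Share of distal regions with each motif in the 500 bp around the midpoint, in percent, for lost, retained, gained and all merged regions. Bars are shares and error bars Wilson 95% intervals, and AP1 is the motif with the widest gap, at 29.2% of lost against 59.8% of retained regions.

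Among the 20 members with the highest mean percentile, 11 were promoter regions, 5 lay in introns and 4 between genes. Promoters were 46.9% (30.9 to 63.6) of the 32 members above the 60th percentile, against 52.0% of such retained regions. The first was the promoter of *Vps33b*, a vesicle trafficking gene (chr7:80269483-80269762), with scores of 19.5 and 30.0 in the untreated EpRas libraries and no peak in the other 6. The promoter of *Cyb561d1*, a cytochrome b561 family gene (chr3:108200419-108200673), had scores of 28.1 and 19.0 there, and 16.5 in the first TGF-β-treated EpH4 library. Its nearest treated EpRas peak was 130 bp away, whereas that of *Vps33b* was 8194 bp away.

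Other promoters among the strongest members were those of *Ddx56*, *Rcor3* and *Mcm5*. At *Ddx56*, which encodes an RNA helicase (chr11:6267658-6267950), the scores were 29.9 and 15.6. At *Rcor3*, a corepressor gene of the CoREST family (chr1:192136575-192136970), they were 22.5 and 17.2, and the nearest TSS, 84 bp away, was that of the noncoding *Gm37055*. At *Mcm5*, which encodes a subunit of the replicative helicase (chr8:75108579-75108863), they were 17.9 and 17.0, with a treated peak 401 bp away. In each pair both untreated values were above the median of the members in that library.

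A signalling gene, a phosphatase gene and a Golgi gene were also present. The promoter of *Dvl2*, which encodes a Dishevelled protein of the Wnt pathway (chr11:70000382-70000644), had scores of 17.0 and 19.5. The promoter of *Ppm1g*, a protein phosphatase gene (chr5:31220530-31220825), had scores of 18.2 and 20.3, and that of *Acbd3*, which encodes a Golgi protein (chr1:180725894-180726112), 19.4 and 16.7. The *Ddx56* and *Ppm1g* promoters moved the other way in EpH4 cells, where both TGF-β-treated libraries and no untreated one had a peak. Other strong promoter regions were those of the noncoding *Gm43837*, whose nearest coding gene is *Tbc1d1*, and *Mir1199*, near *2210011C24Rik*.

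The strongest distal members lay in and near genes of varied function. A region in an intron of the noncoding *Wincr1*, 58.4 kb from the TSS of *Mtap*, a gene of methionine salvage (chr4:89078517-89078898), had scores of 20.5 and 20.5. A region in an intron of *Mrc1*, which encodes the mannose receptor of macrophages (chr2:14295443-14295713), had scores of 21.8 and 16.7 and no peak in EpH4 cells. A region 18.2 kb upstream of *Mlph*, whose product links Rab27a to myosin in melanosome transport (chr1:90896708-90897102), had scores of 17.0 and 20.3. The others were near *Speer4d*, *Daam1*, *Saxo1*, *Tcf20*, *Rps21* and *Plb1*. *Speer4d* belongs to a family of near-identical genes, so the placement of its reads is uncertain.

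**Figure D4:**
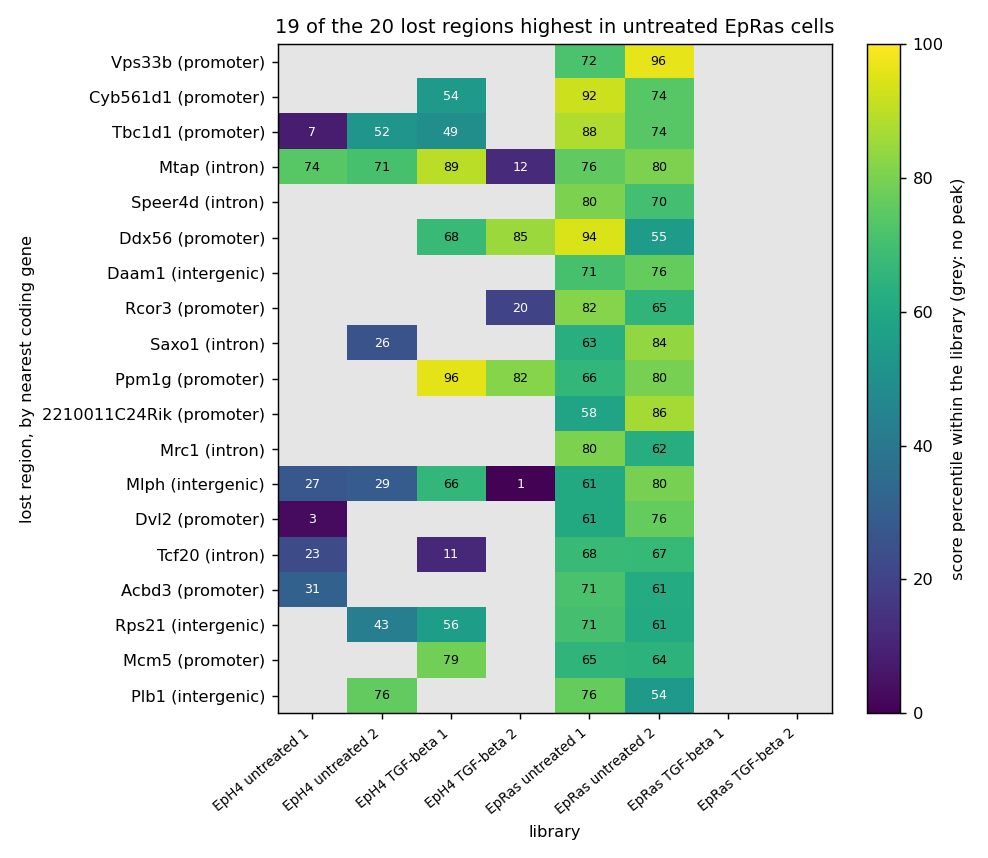
Score percentile within each library for 19 of the 20 lost regions with the highest mean in the untreated EpRas libraries, with grey cells where the library had no peak. Rows are named by the nearest coding gene and the class of the region, columns are the 8 libraries, and the grey cells under EpRas TGF-beta are fixed by the rule, while those under EpH4 are not.

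Near genes known for EMT, TGF-β or Ras signalling, the share of regions lost could not be told from that over all regions. Of 376 genes in 12 lists, 12 had a member within their span or 20 kb of it, through 11 members. The share of both-untreated regions that were lost near the listed genes ranged from 0% to 5.56% by list, against 3.23% over all regions, and with 10 to 57 such regions per list each interval held that value. No member lay near the genes of 5 lists: keratins, mesenchymal markers and matrix, EMT transcription factors, Wnt and Notch signalling, and growth arrest and cell cycle. The counts were 0 of 10, 0 of 19, 0 of 24, 0 of 38 and 0 of 25 regions, and 3 counts of each would still be a share of 30.0%, 15.8%, 12.5%, 7.89% and 12.0%.

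In the TGF-β and BMP list, 2 of 57 regions were lost (3.51%). One lay in an intron of *Ltbp1*, which encodes a protein that tethers latent TGF-β to the matrix (chr17:75251275-75251530), with scores of 14.5 and 10.3, no peak in EpH4 cells and 1 AP1 word. The *Ltbp1* span also held 6 retained and 3 gained regions. The other lay 12.5 kb downstream of the TSS of *Inhbb*, an activin subunit gene (chr1:119409608-119409889), with scores of 9.89 and 13.2.

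In the list of EGF receptor, Ras and MAPK genes 3 of 54 regions were lost (5.56%). One lay in an intron of *Map2k1*, which encodes the kinase MEK1 (chr9:64202446-64202718), with scores of 16.0 and 14.5 in untreated EpRas cells and no peak in EpH4 cells. One lay 4.54 kb upstream of *Mapk3*, the gene of the kinase ERK1 (chr7:126754939-126755180), with scores of 11.7 and 13.4, and had a peak in 1 EpH4 library. Both of these regions held an AP1 word, and neither gene had a retained or gained region. Of the 2 *Map2k1* regions called in both untreated EpRas libraries, 1 was lost and the other had a peak in 1 treated library. The third was the promoter of *Pgap3* (chr11:98400091-98400595), which falls within 20 kb of the receptor gene *Erbb2*, with scores of 19.1 and 15.6.

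In the lists of junction and adhesion genes, *Marveld3* and *Itgb5* were among the genes with a lost region. A region 8.34 kb upstream of *Marveld3*, a tight junction gene (chr8:109970420-109970664), was the only one of 43 lost in the junction and polarity list. In the list of integrin, laminin and hemidesmosome genes 2 of 50 regions were lost (4.00%). One of these, in an intron of *Itgb5*, the gene of an integrin subunit that binds vitronectin (chr16:33836590-33837100), had scores of 13.8 and 13.5.

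In the Hippo list 2 of 36 regions were lost, at the promoter of *Mob1a*, which encodes an activator of the Hippo kinases (chr6:83325831-83326099), and in an intron of *Tead3* (chr17:28340614-28340915). The *Mob1a* scores were 15.8 and 15.6, and those of *Tead3* 11.5 and 12.6, with a treated peak 202 bp from the *Tead3* region. In the list of AP1, ETS and RUNX factors, 1 of 49 regions was lost, in an intron of *Runx2*, a factor of bone formation (chr17:44588034-44588362), with scores of 9.81 and 9.18. *Runx2* kept 4 retained regions and had 2 gained ones, so the locus as a whole was not lost.

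The EpH4 calls, which the rule did not use, gave the independent readout. EpH4 peaks entered only the merging that set the regions, and merging the EpRas lists alone gave 346 members. Of the 345 members, 22.3% (18.2 to 27.0) and 27.0% (22.6 to 31.9) had a peak in the untreated EpH4 libraries, and 34.2% (29.4 to 39.4) and 16.2% (12.7 to 20.5) in the TGF-β-treated ones. Over all merged regions the shares were 33.3% and 35.0% untreated and 48.0% and 28.9% treated. The treated libraries thus lay on either side of the untreated ones, the first having the longest EpH4 list (17927 peaks) and the second the shortest (10821). The means were 24.6% ± 3.28 (SD, n = 2) untreated and 25.2% ± 12.7 (SD, n = 2) treated, a difference of -0.58 percentage points, with p = 1 by the exact two-sided permutation test, which cannot go below 0.333 with 2 against 2 libraries. No difference by TGF-β was detectable for these regions in EpH4 cells. The difference was 1.73 points without the first untreated EpH4 library and 8.41 points without the first treated one.

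The same held relative to the retained regions. Retained regions had a peak in 71.1% and 72.8% in the untreated and 82.9% and 63.9% in the treated EpH4 libraries. The share of lost divided by that of retained regions was 0.314 and 0.370 in untreated and 0.412 and 0.254 in treated EpH4 libraries. The difference of the mean log2 ratios, untreated minus treated, was 0.075 (exact permutation test, two-sided, p = 1). It was -0.025 without the second untreated EpH4 library and -0.27 without the second treated one.

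Many members had a peak in EpRas cells and in no EpH4 library. Members with a peak in 0, 1, 2, 3 and 4 EpH4 libraries numbered 168, 82, 48, 22 and 25. The share with none was 48.7% (43.5 to 54.0), against 8.44% (7.88 to 9.04) of retained, 26.9% of regions called in 1 treated library, 55.2% (53.4 to 57.0) of gained and 36.9% of all regions. The share called in all 4 was 7.25%, against 48.9% of retained and 15.9% of all regions. In this respect lost regions were nearer to gained than to retained regions. In the untreated EpRas libraries the median percentiles were 34.1 and 30.2 for lost and 69.1 and 62.3 for retained regions. In the treated ones they were 44.1 and 29.5 for gained and 80.8 and 68.0 for retained regions. The share with no EpH4 peak was not compared within steps of score. AP1 words were present in 30.4% (22.6 to 39.4) of distal members with no EpH4 peak and in 33.3% (20.2 to 49.7) of those with peaks in 3 or 4 EpH4 libraries, against 59.7% and 59.1% of retained regions.

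**Figure D5:**
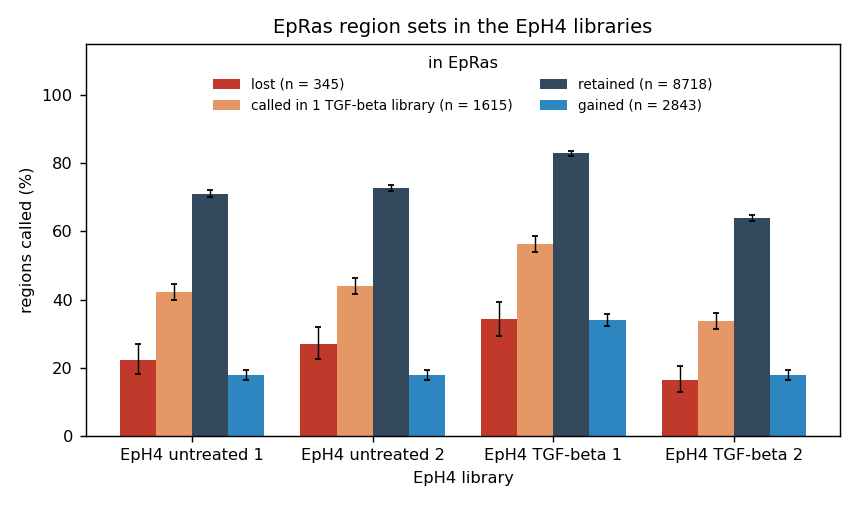
Share of each EpRas region set with a peak in each EpH4 library, in percent. Bars are shares, error bars are Wilson 95% intervals, and lost regions are called in 16.2% to 34.2%, below retained regions in every library.

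The same rule applied to EpH4 cells, with both untreated and no treated library called, was met by 7 members. That was 2.03% of the 345, against 1.68% of all regions, and 11 members (3.19%) were gained in EpH4 cells, against 3.27% of all regions. Both counts were near the background. Of the 47 members called in both untreated EpH4 libraries, 7 were lost there (14.9%, 7.41 to 27.7), against 2.82% of such retained regions and 7.30% of all such regions.

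Of the 7 regions lost in both lines, 3 were promoter regions. The first was a region 1565 bp from a TSS of the noncoding *Gm15998* within *Efna3*, which encodes an ephrin (chr3:89316861-89317146). The others were the promoters of *Mospd3* (chr5:137600627-137600922) and *Gsap* (chr5:21186120-21186390). The *Efna3* region had scores of 21.4 and 17.2 in untreated EpH4 and of 12.7 and 20.1 in untreated EpRas cells. The *Mospd3* region had a peak in treated EpRas cells 61 bp away, whereas for *Gsap* the nearest was 10738 bp away.

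The other 4 were intergenic, and 1 of them, near *Tacc1* (chr8:25263078-25263397), held an AP1 word. A region 9.36 kb upstream of *Gnai2*, which encodes an inhibitory G protein subunit (chr9:107644590-107644867), had scores of 12.4 and 12.9 in untreated EpH4 and of 11.7 and 13.4 in untreated EpRas cells. Its sequence, given above, was free of annotated repeats and held 2 ETS words. The last 2 were 119.9 kb from the TSS of *Bard1* (chr1:70983122-70983333) and 73.0 kb from that of *Ifngr1*, the interferon-γ receptor gene (chr10:19518810-19519099). Soft-masked repeats made up 100% of the 500 bp of the *Bard1* region and 50.8% of those of the *Ifngr1* region. The part of repeats in the calls was not tested.

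The 25 members called in all 4 EpH4 libraries were the opposite case, lost in treated EpRas cells although both EpH4 conditions had a peak. Of these, 22 were distal and 3 promoters, and 10 of the 22 distal ones held an AP1 word. The *Mtap* region was at score percentiles of 73.9 and 70.8 in untreated and of 89.5 and 12.1 in treated EpH4 libraries, each within its own list. The *Mlph* region was at 27.3 and 29.0 untreated and at 66.3 and 0.661 treated. In both regions the percentile was highest in the first treated library and lowest in the second, so that the treated values enclosed the untreated ones.

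The *Itgb5* region was at percentiles of 80.7 and 65.4 in untreated and of 83.6 and 90.1 in treated EpH4 libraries. Both treated percentiles were above both untreated ones, a description of 1 region with no test. The *Mob1a* promoter was at 43.8 and 64.4 untreated and at 70.8 and 62.0 treated. The promoter of *Wfdc2*, which encodes a secreted protein of epithelia (chr2:164562399-164562730), was at 66.9 and 86.6 untreated and at 84.4 and 82.8 treated. For these promoters the groups overlapped. Others of this kind had *Stau1*, *Nemp2*, *Sh3bp4* and, with its TSS 310.2 kb away, *Pex5l* as the nearest coding gene.

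Of the 345 members, 320 had no other member within 100 kb, 22 formed 11 pairs and 3 formed a triplet. The triplet spanned 177 kb on chromosome 11 near *Tekt1*, *Ggt6* and *Spns2*, among 15 merged regions of which 3 were retained and 0 gained. The pair with the highest scores (chr5:64382472-64438149) had *Tbc1d1*, a gene of a Rab GTPase-activating protein, as its nearest coding gene. Its members lay 152.2 and 207.5 kb from the TSS of *Tbc1d1* and outside the span of that gene. No other merged region lay between the members of this pair, and 1 of them had a treated EpRas peak 630 bp away.

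Other pairs lay at *Tcf20*, *Gabbr2*, *St3gal1* and *Gm2163*, each with no other merged region between the 2 members. The *Tcf20* pair, in an intron of a transcriptional coregulator gene, spanned 7.88 kb, and 1 of its members held an AP1 word and had a treated EpRas peak 98 bp away. The pair near *Muc1*, which encodes a cell surface mucin, and *Efna3* spanned 89.0 kb and held 10 merged regions, of which 1 was gained and 0 were retained.

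The cell lines were checked on marker genes, read as peaks within 2 kb of a TSS. A peak was present at the keratin gene *Krt14* in all 8 libraries, at *Cdh1*, which encodes E-cadherin, in 4 of 4 EpH4 and 0 of 4 EpRas libraries, and at the fibronectin gene *Fn1* in 3 of 4 EpH4 and 4 of 4 EpRas libraries. The 5 immune, 4 endothelial and 3 adipocyte markers had no peak in any library. Of 10 epithelial markers, 4 had no peak in any library, *Epcam* among them, and of 10 mesenchymal markers 6 had none, *Cdh2* among them. Besides *Fn1*, the mesenchymal markers with a peak were *Pdgfra*, in 2 EpH4 and 2 EpRas libraries, *Col1a1*, in 0 and 2, and *Vim*, in 0 and 1.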

How the data were processed

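FAIRE-seq was performed in 8 libraries, 2 for each of 4 groups, grouped and numbered as their labels state. Per the labels and the study's methods, the authors sequenced them on an Ion Proton, used Bowtie2 for mapping to mm10 and MACS2 (version 2.0.9) to call peaks. The deposited files were peak lists, 1 per library, each with a score whose meaning was not stated, so scores were compared between libraries only as percentiles within each list. Handling of duplicate and multiply mapped reads was not given in the sources used here, and read depth was unknown, so a longer list may reflect a deeper library.

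The 129466 peaks were merged into regions by overlaps of at least 1 bp. Regions were annotated with GENCODE vM21 (basic) and GRCm38.p6 sequence. Motifs were exact words on either strand. The 4 EpH4 libraries were compared by exact permutation. Regions are not replicates, so shares carry Wilson 95% intervals (scipy 1.17.1) and no test. The functions were tested on simulated peak lists, in which they recovered the regions planted there.

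The members, gene lists and motifs were chosen with earlier results of these data known. The regions named were the 20 members with the highest mean percentile, members near listed genes, up to 10 members each called in all 4 EpH4 libraries, lost in EpH4 or at promoters, and loci with 2 or more members within 100 kb. Members at the edge of the rule, those with rare motif words, and the printed sequences were picked from the values. Some regions that meet these rules are not reported here.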

Additional observations from a re-analysis of the deposited data

How the results depend on the processing

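The number of lost regions was 256 with only the peaks at or above the median score of each list, 346 with the EpRas lists merged alone, 298 without members that had a treated peak within 500 bp and 354 when peaks had to cover at least 50% of a region. With the same number of highest-scored peaks per library (10821) it was 808. Leaving out 1 library gave 345 to 2118. The promoter share, 35.4%, was 45.9% with equal lists, 47.7% with the peaks at or above the median score, 29.6% with a TSS window of 1 kb and 28.4% with protein-coding TSSs only, and 33.5% to 42.8% with 1 library left out, 42.8% being without the first TGF-β-treated EpRas library. The AP1 share of distal members, 29.2%, was 42.1% with equal lists, 41.0% with the peaks at or above the median score, 22.9% with a motif window of 200 bp, and 25.1% to 41.6% with 1 library left out, 41.6% being again without the first treated EpRas library. Retained regions were at 62.4%, 62.2% and 51.7% under the first 3 of these AP1 settings and at 57.7% to 59.8% with 1 library left out. The lost share was below the retained one under every alternative run, for promoters and for AP1.

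The EpH4 difference of -0.58 points was 3.03 points with equal lists and ran from -9.57 to 8.41 points with 1 library left out. The log2 ratio of 0.075 was -0.11 with the peaks at or above the median score and ran from -0.27 to 0.43 with 1 library left out. The exact permutation test could not give p below 0.333 in any of these settings, so its p-values decide nothing here. With a replicate block, differences within replicate numbers were -11.9 and 10.7 points, with means of -0.58 points and 0.075 (log2), and exact sign-flip p = 1, where 0.5 is the smallest possible. The numbers are not known to pair the libraries. Depth limits all calls: the lists show neither reads nor sites under the authors' limit.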

Other observations

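Lost regions were found on 20 chromosomes. On chromosome 4, which had the most, 33 of 778 regions called in both untreated EpRas libraries were lost, 4.24% (3.04 to 5.90), and on chromosome 12 it was 5 of 317, 1.58% (0.676 to 3.64). On the X chromosome 1 of 84 such regions was lost (1.19%, 0.211 to 6.44). The intervals of chromosomes 4, 12 and X each held the share of 3.23% over all chromosomes.

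In 10 of the 345 members at least 50% of the 500 bp around the midpoint was soft-masked repeat, and in 4 of these it was 100%. All 10 were distal, 4.48% of the distal members, against 2.73% of retained and 3.99% of all distal regions. How reads with several matches were placed is not known, and its part in these calls was not tested.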
